A study of Mus musculus with 12 samples.

Results

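Expression was followed for 41 listed genes of the cell division cycle, 21 that act at the entry into S phase (G1/S) and 20 that act in G2 and mitosis (G2/M). Each gene was read from 1 probe set, that with the highest mean over the 12 arrays. A probe set with this gene as its only symbol in the platform annotation was found for 40 of the 41 genes, and Ccnb1, the gene of cyclin B1, was not analysed here. Of these 40, 38 had a mean at or above log2 3.98, the 30th percentile of all probe sets, and were tested: 20 of the 21 G1/S genes and 18 of the 19 measured G2/M genes. Tyms, which encodes thymidylate synthase, stayed between log2 3.2 and 4.0 and Cenpe, a kinetochore motor, between 2.6 and 3.4, so neither was tested. The whole series held 12393 genes with such a probe set, of which 9433 were tested.

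RNA came from ET cells, which the labels call a cortical thymic epithelial line of the fetal mouse. All cultures were grown close to confluence in medium with fetal calf serum. At the start the cells were washed and given fresh medium. The treatment was 5 nM TCDD, a dioxin and ligand of the aryl hydrocarbon receptor (AhR), or the solvent 1,4-dioxane at 0.05% by volume. RNA was taken at 2, 4 or 6 h, which made 6 groups of 2 Affymetrix arrays. The labels speak of biological duplicates without saying whether cultures or hybridisations were repeated, so the p-values below rest on a spread that may be partly technical. The treatment field of the second 4 h TCDD array named the solvent while its title, description and protocol named TCDD. Both 6 h solvent arrays gave 4 h in description and protocol and 6 h in title and time field. The titles set the groups.

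Cells pass from G1 into S phase when D-type cyclins with Cdk4 and E-type cyclins with Cdk2 inactivate the Rb family and release the E2F transcription factors, which drive genes for loading the Mcm helicase and for making nucleotides. Later, cyclin A and cyclin B with Cdk1 and the kinases Plk1 and Aurora carry the cell through mitosis, and their genes are repressed in resting cells by the DREAM complex through CHR elements and activated through CCAAT boxes, which NF-Y binds. Ligand-bound AhR acts through a short DNA motif, the xenobiotic response element (XRE), and in several cell types its activation has been linked to a slower passage through G1.

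Promoter sequence was available for 32 of the 41 genes in a RefSeq table of build GRCm38.p6, in windows from 250 bases before to 50 bases after each start. The following motifs were searched on both strands, with overlapping matches allowed: E2F (TTTCCCGC, TTTGGCGC, TTTCGCGC or TTTGCCGC), CHR (TTTGAA), the CCAAT box (CCAAT) and XRE (TNGCGTG). Ccnd1, Ccnd2, Ccne2, Mcm4, Gmnn, Ccna2, Cdc25c, Aurkb and Kif20a were not matched. An E2F match was found in 7 of 16 G1/S genes (43.8%), namely Mcm3, Mcm5, Mcm6, Mcm7, Cdt1, Cdk2 and Cdc6, and in 1 of 16 G2/M genes, Cdk1 (6.25%), against 2.6% of all 27025 genes. A CHR match was found in 11 of 16 G2/M genes (68.8%) and in 1 of 16 G1/S genes, Mcm2 (6.25%), against 20.2% of all genes. The CCAAT box was present in 15 of 16 G2/M genes (93.8%), in 10 of 16 G1/S genes (62.5%) and in 41.1% of all genes. The XRE letters were found for Cdt1 and Mcm2 in G1/S (12.5%) and for Kif11 in G2/M (6.25%), against 5.84% of all genes. A match is a run of letters, and binding was not measured.

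The stretch of 180 bases that ends just before the start is shown for 3 genes with an E2F match and for the 5 G2/M genes whose levels varied most between arrays. Sequences run 5' to 3' on the gene's strand and capitals mark the motif letters given above or their reverse complement. Mcm6 (chr1:128359706-128359885, minus strand) and Mcm7 (chr5:138171884-138172063, minus, the farther upstream of its 2 starts) encode subunits of the replicative helicase, and Cdk1 (chr10:69352913-69353092, minus) encodes the mitotic kinase.
Mcm6: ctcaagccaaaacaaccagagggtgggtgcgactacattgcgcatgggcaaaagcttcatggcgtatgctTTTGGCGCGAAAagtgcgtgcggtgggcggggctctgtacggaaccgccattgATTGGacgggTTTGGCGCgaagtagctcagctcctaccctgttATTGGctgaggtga
Mcm7: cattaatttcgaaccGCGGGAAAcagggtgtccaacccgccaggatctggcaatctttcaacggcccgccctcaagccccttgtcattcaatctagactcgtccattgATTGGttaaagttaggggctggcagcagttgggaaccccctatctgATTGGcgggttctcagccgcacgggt
Cdk1: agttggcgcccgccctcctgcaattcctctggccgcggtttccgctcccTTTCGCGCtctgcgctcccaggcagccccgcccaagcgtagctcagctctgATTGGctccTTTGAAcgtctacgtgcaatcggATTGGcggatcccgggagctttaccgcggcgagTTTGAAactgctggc
In these stretches Mcm6 has 3 E2F matches, of which a pair overlaps, and Mcm7 has 1. Cdk1 has 1 E2F and 2 CHR matches, and each of the 3 genes has 2 CCAAT boxes.

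Bub1 (chr2:127831860-127832039, minus) and Ttk (chr9:83834509-83834688, plus) encode kinases of the spindle checkpoint, Mki67 (chr7:135716380-135716559, minus) the proliferation antigen Ki-67, Top2a (chr11:99024190-99024369, minus) DNA topoisomerase II alpha and Kif11 (chr19:37376202-37376381, plus) the spindle motor Eg5.
Bub1: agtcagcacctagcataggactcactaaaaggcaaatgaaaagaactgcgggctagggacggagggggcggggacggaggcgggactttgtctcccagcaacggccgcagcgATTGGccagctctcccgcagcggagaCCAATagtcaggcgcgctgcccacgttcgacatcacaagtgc
Ttk: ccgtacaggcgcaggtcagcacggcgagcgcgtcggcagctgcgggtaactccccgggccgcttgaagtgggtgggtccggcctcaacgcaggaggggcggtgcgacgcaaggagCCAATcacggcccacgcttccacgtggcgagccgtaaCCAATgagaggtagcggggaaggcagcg
Mki67: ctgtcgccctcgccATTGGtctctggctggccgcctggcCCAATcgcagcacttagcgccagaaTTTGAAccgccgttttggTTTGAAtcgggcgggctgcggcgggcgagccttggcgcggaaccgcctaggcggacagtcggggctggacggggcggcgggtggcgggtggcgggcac
Top2a: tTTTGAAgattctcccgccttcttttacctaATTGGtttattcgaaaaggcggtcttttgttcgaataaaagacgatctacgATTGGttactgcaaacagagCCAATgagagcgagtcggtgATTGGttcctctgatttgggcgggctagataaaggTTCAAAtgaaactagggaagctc
Kif11: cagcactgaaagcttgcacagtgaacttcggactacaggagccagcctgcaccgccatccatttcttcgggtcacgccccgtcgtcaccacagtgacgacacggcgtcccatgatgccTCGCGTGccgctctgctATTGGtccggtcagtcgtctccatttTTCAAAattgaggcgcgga
All 5 stretches hold CCAAT boxes, 4 in Top2a, 1 in Kif11 and 2 in each of the others. Mki67 and Top2a show 2 CHR matches each and Kif11 shows 1, while the CHR match of Ttk lies after the start and Bub1 has none in its window. The single XRE in this group belongs to Kif11.

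**Figure D1:**
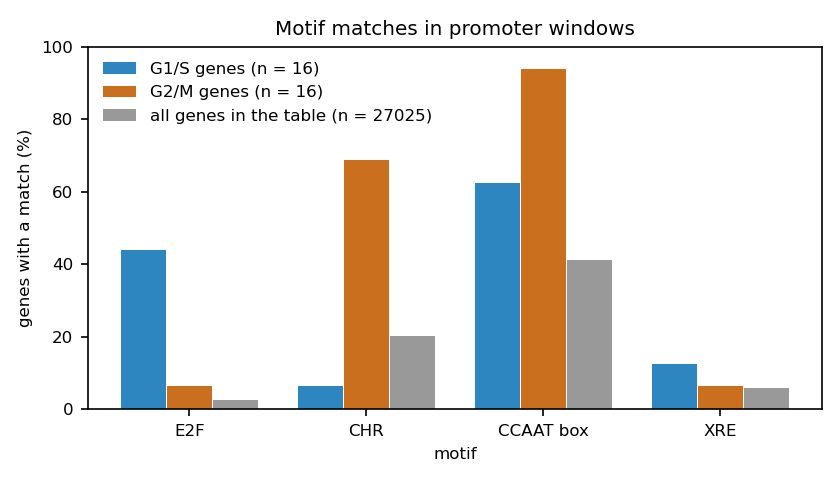
Share of genes with a match to each motif in the promoter window, in percent, for 16 G1/S genes (blue), 16 G2/M genes (orange) and all 27025 genes of the table (grey). The E2F bar is high for G1/S genes (43.8%) and the CHR bar for G2/M genes (68.8%), while the XRE bars stay at or below 12.5%.

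Cyp1a1, the xenobiotic-metabolising enzyme used to check the treatment, stood at log2 4.0 to 5.5 on the solvent arrays and 9.3 to 11.1 on the TCDD arrays, an average rise of log2 5.83 ± 0.26 (SE, 6 against 6 arrays; limma adjusted p = 1.4e-05). The second 4 h TCDD array, whose treatment field named the solvent, read 10.2 for Cyp1a1, within the range of the TCDD arrays. Of cortical thymic epithelial markers, 6 of the 11 with a probe set lay above the filter. Prss16, Ly75, Krt18, Epcam and Cdh1 lay below it. All 12 fibroblast and mesenchyme markers lay above the filter. The arrays were clustered on the other tested probe sets and cut into 4 clusters. The largest cluster, the larger set, held 7 arrays. The 5 arrays of all other clusters were pooled as the smaller set, and a block on the set treats them alike. They were the second arrays of both treatments at 2 and 6 h, and at 4 h the first array with TCDD. The metallothionein Mt1 read log2 9.6 to 10.8 on these 5 and 7.1 to 7.4 on the other 7. The first 4 h TCDD array had the lowest median correlation with the others, 0.953 against 0.971 to 0.986.

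Between TCDD and solvent, none of the 38 tested cell cycle genes passed the test at any time or on average over the 3 times, while Cyp1a1 passed in each. The largest average change was that of Mki67, log2 0.28 ± 0.29 (SE), and the lowest that of Rrm2, a ribonucleotide reductase subunit, at -0.18 ± 0.13. Over the 20 G1/S genes the median average change was -0.08 (4 genes above and 15 below 0), and over the 18 G2/M genes it was 0.02 (11 above, 5 below). The median over all 15844 tested probe sets was 0. For 33 of the 38 genes the 95% interval of the average change lay within 1.5-fold in both directions. This held for all 20 G1/S genes and 13 of 18 G2/M genes. At single times the interval lay within 1.5-fold for fewer of the 38 genes, 9 at 2 h, 13 at 4 h and 13 at 6 h. An average over times can also hide changes of opposite sign.

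Changes were tested with limma on the deposited log2 values, with p-values adjusted by Benjamini-Hochberg over all 15844 probe sets and 0.05 as the threshold. The share of all probe sets past it was 0.0189% at 2 h, and with TCDD for 4 h it was 0.0126%. After 6 h it was 0.00631%, and for the average change 0.0947%, and the 0 of 38 lies at this background. At an unadjusted p under 0.05 there was 1 cell cycle gene at 2 h (Aurka; 2.63% against 1.49% of all probe sets), 0 at 4 h (2.17% of all), 1 at 6 h (Mki67; 2.63% against 2.15%) and 0 for the average (3.36%). A change of the TCDD effect over time passed for 0 probe sets in all (limma F-test), and at an unadjusted p under 0.05 for 0 cell cycle genes and 0.663% of all probe sets. In bulk RNA, fewer cells in a phase and less RNA per cell cannot be told apart.

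**Figure D2:**
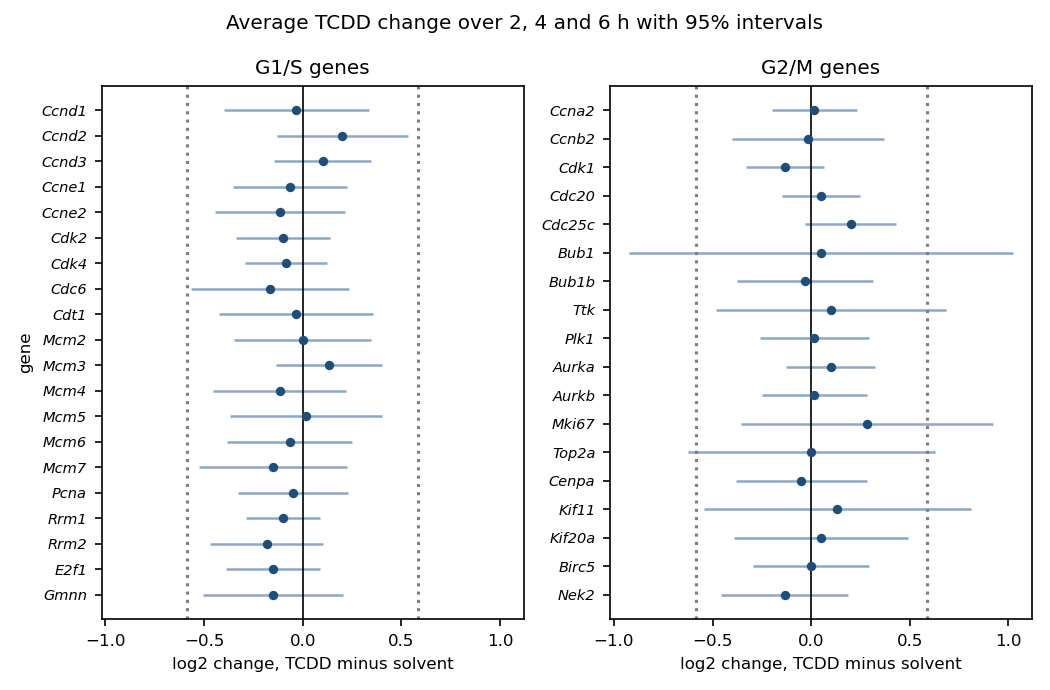
Average TCDD minus solvent change over 2, 4 and 6 h in log2 (points) with 95% intervals (lines) for the 20 tested G1/S genes (left) and 18 tested G2/M genes (right); dotted lines mark 1.5-fold. The intervals of Bub1, Ttk, Mki67, Top2a and Kif11 cross a dotted line, and all 38 include 0.

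Among the G1/S regulators, the cyclins and their kinases stayed close to solvent. Ccnd2 (cyclin D2) showed the highest average change of the group, 0.20 ± 0.15, with 10.0 on the second 6 h TCDD array and 8.7 to 9.5 on the solvent arrays; Ccnd1 was at -0.03 ± 0.16 and Ccnd3 at 0.10 ± 0.11. Ccne1 and Ccne2 (cyclins E1 and E2) were at -0.07 ± 0.13 and -0.12 ± 0.15. The kinases Cdk2 and Cdk4 were at -0.10 ± 0.11 and -0.08 ± 0.09. E2f1, an activator of G1/S genes, had changes of -0.20, -0.15 and -0.10 at the 3 times, with an average of -0.15 ± 0.11, or -0.23 without the first 4 h TCDD array. None of these 8 passed the test.

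The genes that load the replicative helicase split in direction, with values inside the spread between duplicates. Cdc6 and Cdt1 encode the loading factors and Gmnn encodes geminin, which blocks Cdt1; their average changes were -0.17 ± 0.18, -0.03 ± 0.17 and -0.15 ± 0.16. Of the helicase subunits Mcm2 to Mcm7, Mcm3 was highest at 0.13 ± 0.12 and Mcm7 lowest at -0.15 ± 0.17. Pcna, the sliding clamp of replication, was at -0.05 ± 0.12. The ribonucleotide reductase subunit Rrm1 was at -0.10 ± 0.09 and varied least of these genes, from log2 8.2 to 8.6 over all 12 arrays.

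Several of these genes differed more between the duplicates of 2 h solvent than between treatments. Cdt1 stood at log2 10.6 and 9.6 in 2 h solvent and at 10.6 and 10.2 with TCDD, then at 10.5 and 10.6 against 10.1 and 10.4 at 4 h, and at 10.5 and 10.2 against 10.4 and 10.1 at 6 h. Mcm7 stood at 10.9 and 10.0 against 10.6 and 10.4 at 2 h, at 10.9 and 10.8 against 10.3 and 10.6 at 4 h, and at 10.8 and 10.3 against 10.6 and 10.3 at 6 h. In both genes the second 2 h solvent array was the lowest of all 12, TCDD lay below solvent without overlap only at 4 h, and every array of the smaller set lay below every array of the larger one. They were 2 of 38 cell cycle genes so ordered, and 0 were ordered the other way (5.26% and 0%, against 3.14% and 1.98% of all probe sets). Other probe sets of Mcm7 gave 4 h changes of 0.05, -0.15 and -0.35, against -0.40 on the chosen one. The one at 0.05 read 9.6 on the first 4 h TCDD array and 9.0 to 9.5 on the rest. The order of the sets did not hold there. The other tested probe set of Cdt1 gave -0.15 at 4 h, against -0.30. Cdc6, Cdt1 and Mcm2 had gaps of at least 1 between the 2 h solvent duplicates, as did 2.66% of all probe sets.

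By time, the G1/S genes had a median change of 0.05 at 2 h (11 above, 8 below 0). It lay at -0.15 after 4 h (4 above, 15 below) and at -0.10 after 6 h (4 above, 15 below). The 2 h value depended on the solvent arrays: it was -0.15 without the second and 0.23 without the first. The 4 h value was -0.10 without the first 4 h TCDD array, again with 15 below and 4 above. At 4 h both TCDD arrays lay below both solvent arrays for Cdc6, Cdt1, Mcm2, Mcm7, Rrm1 and Gmnn, and with Cdk1 and Birc5 of the G2/M list this was 8 of 38 genes (21.1% against 11.1% of all probe sets); the opposite held for Cdc25c (2.63% against 7.95%). Both 4 h solvent arrays belong to the larger set and the first 4 h TCDD array to the smaller, so treatment and set are partly confounded at 4 h. With the set as a block the 4 h medians were -0.07 for G1/S and -0.03 for G2/M genes. The change of Cdt1 went from -0.30 to -0.07 and that of Mcm7 from -0.40 to -0.18. Mcm2 went from -0.15 to -0.03, Birc5 from -0.20 to -0.06 and Gmnn from -0.60 to -0.43. Cdc6 stayed near its value (-0.35 and -0.37), as did Cdk1 (-0.30 and -0.26) and Rrm1 (-0.15 and -0.13). The other tested probe set of Rrm1 gave a change of 0 at 4 h without the block, and 0.03 ± 0.08 on average over the times. Gmnn stood at 8.6 and 8.6 in 4 h solvent and at 7.6 and 8.4 with TCDD, a change of -0.60 ± 0.28 that was -0.20 without the first TCDD array. At 6 h Cdk4 and Rrm1 were lower without overlap, with Cdk1 3 of 38 genes (7.89% against 9.66%).

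**Figure D3:**
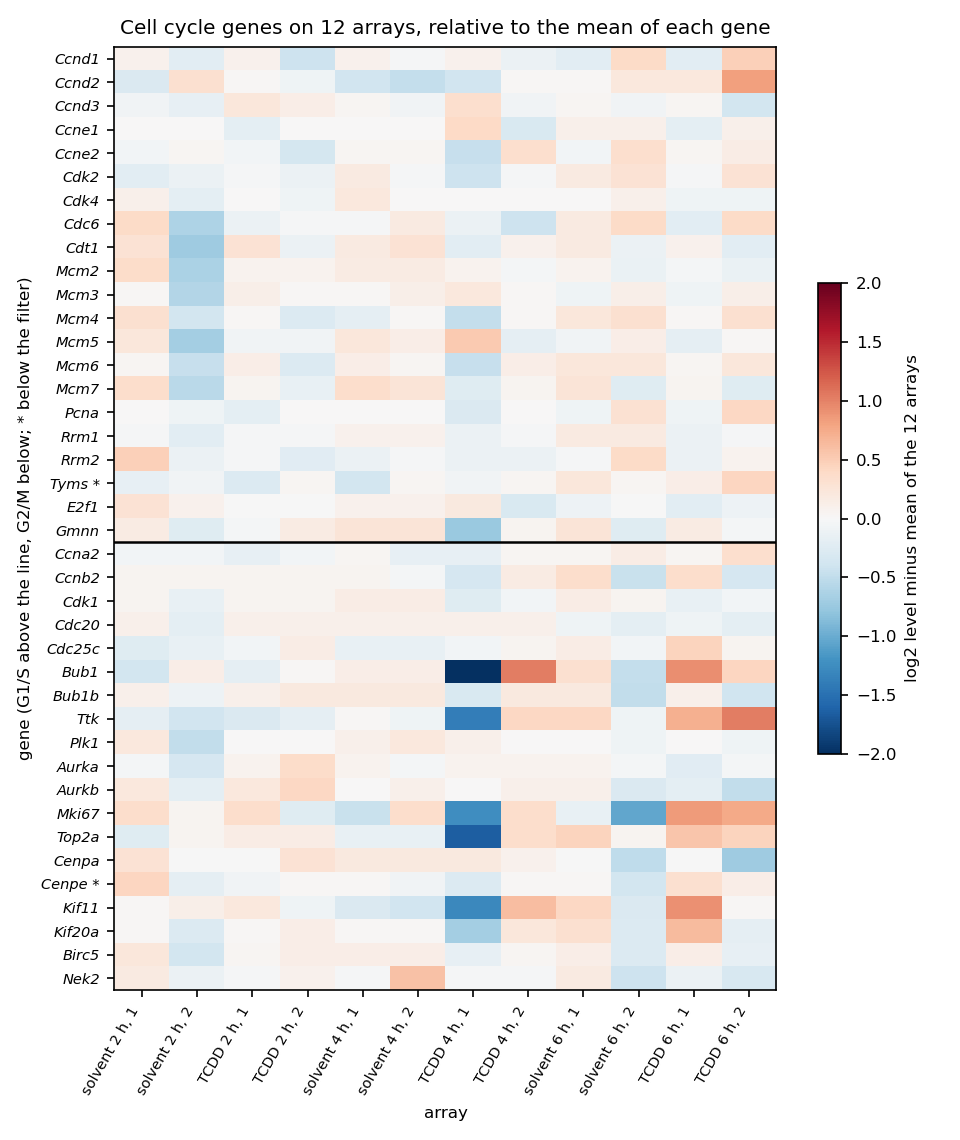
Log2 level of each of the 40 measured genes (rows) on each of the 12 arrays (columns) minus the gene's mean over the arrays, red above and blue below it; an asterisk marks the 2 genes below the filter. The blue cells of the second 2 h solvent array lie among the Mcm genes, Cdt1 and Cdc6, and the darkest ones among Bub1, Ttk, Mki67, Top2a and Kif11 on the first 4 h TCDD array.

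The G2/M genes spread over the arrays at least as widely as other probe sets: 8 of 18 ranged over at least log2 1 (44.4% against 32.6% of all), and their median SD between duplicates was 0.27 against 0.23. The least variable was Cdc20, the activator of the anaphase-promoting complex, from log2 8.8 to 9.1 over all arrays (average change 0.05 ± 0.09). Ccna2 (cyclin A2) ranged from 8.1 to 8.6 (0.02 ± 0.10). Ccnb2 (cyclin B2), Plk1 and Birc5 (survivin) had average changes of -0.02 ± 0.17, 0.02 ± 0.12 and 0.00 ± 0.13. Of the remaining kinases, the checkpoint kinase Bub1b was at -0.03 ± 0.15, Aurkb at 0.02 ± 0.12 and Nek2 at -0.13 ± 0.14. The centromere histone Cenpa was at -0.05 ± 0.15 and the motor Kif20a at 0.05 ± 0.20.

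Cdk1 varied by log2 0.4 over the 12 arrays. It stood at 10.4 and 10.2 in solvent and 10.4 and 10.4 with TCDD at 2 h, at 10.5 and 10.5 against 10.1 and 10.3 at 4 h, and at 10.5 and 10.4 against 10.2 and 10.3 at 6 h. TCDD lay below solvent without overlap at 4 and 6 h, by 0.30 ± 0.15 and 0.20 ± 0.15, and neither passed (limma adjusted p = 0.973 and 1). Cdc25c, the phosphatase that activates Cdk1, stood at 5.4 and 5.5 against 5.6 and 5.8 at 2 h, at 5.5 and 5.5 against 5.6 and 5.7 at 4 h, and at 5.8 and 5.6 against 6.1 and 5.7 at 6 h. TCDD was higher without overlap at 2 and 4 h and by 0.1 to 0.3 in 6 of 6 same-numbered pairs. Of the 38 genes 1 was higher in all 6 pairs and 0 were lower (2.63% and 0%, against 1.19% and 1.2% of all probe sets). Its average change of 0.20 ± 0.10 did not pass (limma adjusted p = 1). Aurka, the centrosomal Aurora kinase, read 8.1 and 7.8 in solvent and 8.2 and 8.5 with TCDD at 2 h, a change of 0.40 ± 0.18 (limma adjusted p = 1), and was at 0.05 and -0.15 at 4 and 6 h.

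Bub1, Ttk, Mki67, Top2a and Kif11 held the widest spread, and each differed most between duplicates in the 4 h TCDD group. Mki67 still ranged from 5.1 to 7.0 on the 11 arrays other than the first 4 h TCDD array. Bub1 read 3.5 and 6.6 on the 4 h TCDD arrays, the lowest and the highest of its 12 values, with 5.7 on both 4 h solvent arrays. Top2a read 6.1 and 8.1 against 7.6 and 7.6, and Kif11 read 3.7 and 5.6 against 4.7 and 4.6. For these 3 genes the first array lay below both solvent arrays and the second above both. Ttk behaved alike, with 3.8 and 5.6 against 5.2 and 5.1, whereas Mki67 read 4.9 and 6.5 against 5.7 and 6.5, so that its second array did not exceed solvent.

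On the chosen probe sets, the first array was lower than the second by at least 1 in these 5 of 38 genes and in 0 G1/S genes. This was 13.2% of the 38, against 10.8% of all probe sets. The first array was higher by at least 1 in 0 of 38 (2.18% of all). It was the lowest of the 12 arrays for 12 of the 38 genes (31.6% against 18.9% of all), 7 of them G2/M, and the highest for 4 G1/S genes, Ccnd3, Ccne1, Mcm3 and Mcm5 (10.5% against 21.9%). On that array the summed log2 level of the 12 fibroblast and mesenchyme markers was 117, against 122.9 to 126.7 on the solvent arrays. The sums of medullary (36.1 against 33 to 34.9), cortical (55.9 against 53.9 to 55.7) and endothelial markers (20.5 against 18.8 to 19.7) lay above the solvent range there, and that of thymocyte markers (29.6) within 27.6 to 29.9. These sums include markers below the filter. Above it lay 4 of 8 medullary, 6 of 11 cortical, 2 of 5 endothelial and 5 of 7 thymocyte markers. The Gapdh 3' minus 5' log2 difference of the first 4 h TCDD array was 0 and that of Actb 0.5, values that other arrays also reached. Their part in the result was not tested. Other probe sets of the same genes gave smaller gaps in part: Kif11 had -1.9, -0.7 and -0.3 on its 3 probe sets. For Ccna2 the chosen probe set gave -0.2 and the other gave -1.7, with 6.8 on the first array against 7.9 to 8.5 on the other 11. For Mcm6, a G1/S gene, the chosen probe set gave -0.6 and the other -1.1. That other probe set read 5.9 on the first array and 6.3 to 7.3 on the other 11. The other probe sets of Bub1 and Top2a, both below the filter, gave -0.2 and 0.3.

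Over the 18 G2/M genes the median change at 4 h was -0.15 (2 above, 12 below 0), and without the first TCDD array it turned to 0.08 (11 above, 5 below). The change of Bub1 went from -0.65 ± 0.75 to 0.90 ± 0.35, that of Top2a from -0.50 ± 0.49 to 0.50 ± 0.21, that of Ttk from -0.45 ± 0.45 to 0.45 ± 0.24, that of Mki67 from -0.40 ± 0.50 to 0.40 ± 0.43 and that of Kif11 from 0.00 ± 0.52 to 0.95 ± 0.37. The 4 h TCDD group is then a single array, which is assumed to vary like the other groups. No cell cycle gene passed without that array (0.0189% of all probe sets did at 4 h). At an unadjusted p under 0.05 there were then 4 of 38, E2f1 (lower), Bub1, Top2a and Kif11 (10.5% against 4.96% of all). For the average over the 3 times, 6 of 38 had an unadjusted p under 0.05 without the first 4 h TCDD array, E2f1 (lower), Bub1, Ttk, Mki67, Top2a and Kif11 (15.8% against 7.44% of all), and 0 passed (0.151% of all; lowest limma adjusted p = 0.447, of Ttk at 0.40 ± 0.12). Without the second 4 h TCDD array, the one whose treatment field names the solvent, Bub1 (-2.20, limma adjusted p = 0.0483) and Top2a (-1.50, adjusted p = 0.0414) passed at 4 h, among 59 probe sets in all. The direction at 4 h differs with the array that is kept.

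**Figure D4:**
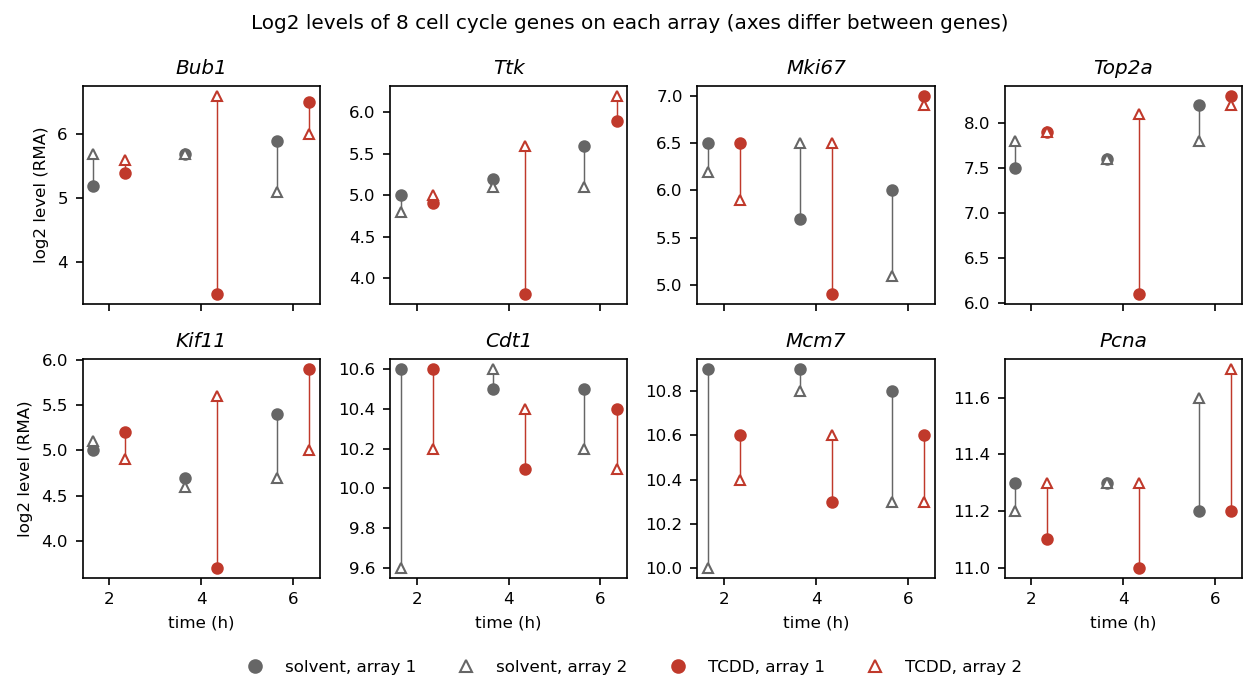
Log2 level on each array for 8 genes against time in hours; grey is solvent, red is TCDD, filled circles are first and open triangles second arrays, and lines join duplicates. The 4 h TCDD duplicates of Bub1, Ttk, Top2a and Kif11 lie on either side of solvent, and both 6 h TCDD values of Mki67 (7.0 and 6.9) lie above solvent (6.0 and 5.1).

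At 6 h the 3 genes in which both TCDD arrays exceeded both solvent arrays were G2/M genes of this variable group: Mki67, Bub1 and Ttk (7.89% of the 38 genes, against 9.69% of all probe sets). Mki67 read 6.0 and 5.1 in solvent and 7.0 and 6.9 with TCDD, a change of 1.40 ± 0.50 (2.64-fold, 95% interval 0.29 to 2.51 in log2), with a limma p of 0.0184 before and 1 after adjustment. It was 1.0 between the first arrays and 1.8 between the second arrays, which belong to the larger and the smaller set. Bub1 read 5.9 and 5.1 against 6.5 and 6.0, a change of 0.75 ± 0.75. Ttk read 5.6 and 5.1 against 5.9 and 6.2, a change of 0.70 ± 0.45. Neither of these passed (limma adjusted p = 1 for both).

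At the earlier times Mki67 read 6.5 and 6.2 against 6.5 and 5.9 at 2 h, a change of -0.15 ± 0.50. At 4 h its change was -0.40 ± 0.50, which turned to 0.40 ± 0.43 without the first TCDD array. The change of its effect over time had a limma F-test p of 0.0579 before and 1 after adjustment. The second 6 h solvent array, with 5.1, was the lowest of its values apart from the first 4 h TCDD array. Across the G2/M genes the 6 h median was 0.05 (10 above, 5 below 0), and leaving out a single 6 h solvent array moved it to -0.08 (without the second) or 0.28 (without the first). Without the first 4 h TCDD array, which entered the 6 h comparison only through the shared variance, Mki67, Bub1 and Ttk had an unadjusted p under 0.05 (7.89% against 4.38% of all probe sets) and none passed (lowest limma adjusted p = 0.563; 0.0442% of all passed).

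At 2 h the G2/M median was 0.13 (12 above, 2 below 0), and it was 0.00 without the second 2 h solvent array and 0.18 without the first. Ccnd3, Cdc25c, Aurka and Top2a were higher without overlap (4 of 38, 10.5% against 7.16% of all probe sets) and E2f1 was lower (2.63% against 6.68%). Top2a read 7.5 and 7.8 against 7.9 and 7.9, a change of 0.25 ± 0.49. In the plot of changes by time, the G1/S genes lie within log2 0.6 of solvent at all 3 times.

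**Figure D5:**
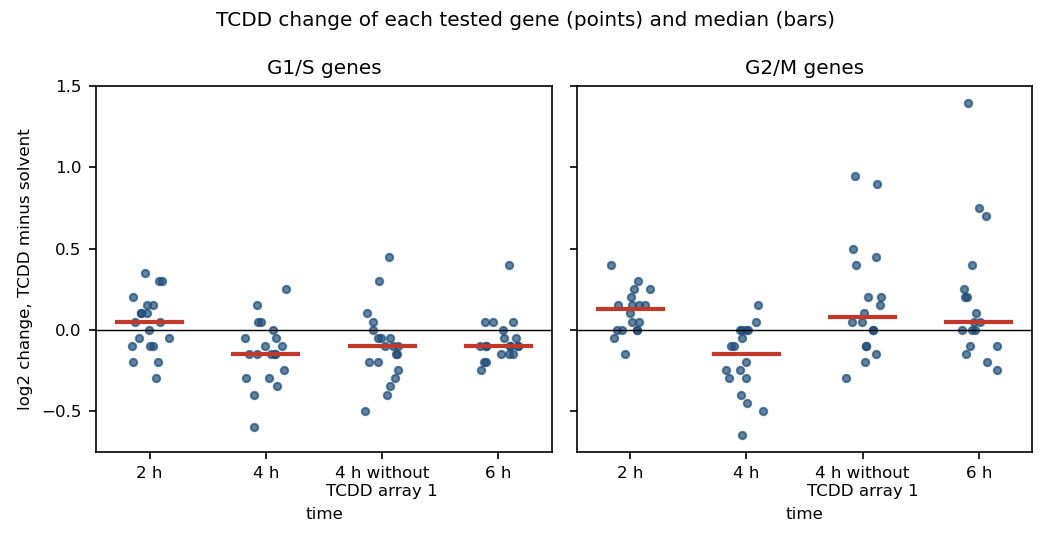
TCDD minus solvent change in log2 for each tested gene (points) and their median (red bars) at 2, 4 and 6 h, and at 4 h without the first TCDD array, for G1/S (left) and G2/M genes (right). The G2/M bar at 4 h moves from -0.15 to 0.08 when that array is left out, while the G1/S bar moves from -0.15 to -0.10.

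Averaged over both treatments, no cell cycle gene passed between 2 h and later times, nor did any other probe set (0% of all). From 2 to 6 h, 17 of 20 G1/S genes were above 0 with a median of 0.13, while the G2/M median was -0.01 (8 above, 9 below) and that of all probe sets -0.03. The G1/S median was 0.00 without the second 2 h solvent array and 0.23 without the first. At 6 h 4 genes had an unadjusted p under 0.05: Cdk2 (0.30 ± 0.13) and Ttk (0.78 ± 0.32) were higher and Aurkb (-0.38 ± 0.15) and Cenpa (-0.45 ± 0.18) lower, 10.5% of the 38 against 11.1% of all probe sets. The limma adjusted p of Ttk was 0.443. Its level was 4.8 to 5.0 on the 4 arrays at 2 h and 5.1 to 6.2 at 6 h, without overlap, and Ccna2 was also higher without overlap (5.26% of the 38 against 4.08% of all). A fit that blocked on the array set and left out the first 4 h TCDD array was added after seeing the data. The 6 h change of Ttk was 0.78 there as well. From 2 to 4 h the medians were 0.08 for G1/S and 0.00 for G2/M genes, and 0 genes had an unadjusted p under 0.05 (2.84% of all).

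Listed genes around this core gave 0 calls for the average change in limma without a block, and in the first 3 lists 0 also at an unadjusted p under 0.05 (3.36% of all probe sets). Of the other replication genes 37 were tested, with an average median of -0.07 and extremes in Orc2, an origin recognition subunit (0.25 ± 0.20), and Pold1, the catalytic subunit of polymerase delta (-0.28 ± 0.19). Of Rb, E2F and DREAM regulators 18 were tested, with a median of 0.03, E2f5 highest (0.20 ± 0.17) and E2f6 lowest (-0.17 ± 0.10). Of other mitotic genes 40 were tested, with a median of -0.03, from Smc2, a condensin subunit (0.35 ± 0.29), to Incenp, a partner of Aurora B (-0.23 ± 0.14). Their 4 h median was -0.30 with all arrays (31 of 40 below 0) and 0.10 without the first TCDD array, a turn of sign as in the G2/M genes. Their average median was then 0.08 (29 above, 9 below 0, from 16 and 24), with 9 of 40 at an unadjusted p under 0.05 (22.5% against 7.44% of all) and 0 past the test (lowest limma adjusted p = 0.102). With the array set block as well, Smc2 passed (0.68 ± 0.10, limma adjusted p = 0.027), among 74 probe sets in all.

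Among the inhibitors of cyclin-dependent kinases, 6 of 7 genes were tested, with an average median of -0.25 and 4 of 6 at an unadjusted p under 0.05 (66.7% against 3.36% of all), or 2 of 6 without the first 4 h TCDD array (33.3% against 7.44%). Cdkn1a, which encodes p21, read 6.0 and 7.3 in solvent and 8.9 and 9.8 with TCDD at 2 h, 5.8 and 5.9 against 8.3 and 6.6 at 4 h, and 5.6 and 6.6 against 6.1 and 6.9 at 6 h. TCDD exceeded solvent without overlap at 2 and 4 h, and the average change was 1.57 ± 0.35 (limma adjusted p = 0.365), or 1.38 ± 0.12 with the array set as a block (adjusted p = 0.00194). Its other probe set gave 0.45 ± 0.25, and 0.35 ± 0.19 with the block (adjusted p = 0.998). Cdkn1b, which encodes p27, read 8.3 and 7.7 against 9.7 and 9.0 at 2 h, 8.2 and 8.3 against 8.2 and 9.0 at 4 h, and 8.3 and 8.1 against 8.7 and 8.4 at 6 h. Its average change was 0.68 ± 0.18 (limma adjusted p = 0.69), or 0.77 ± 0.10 with the block (adjusted p = 0.0188). Cdkn2b, the gene of p15, was lowest of the list at -0.50 ± 0.22 (limma adjusted p = 1). The 4 genes at an unadjusted p under 0.05 with all arrays went both ways. Cdkn1a and Cdkn1b were higher, while Cdkn2b and Cdkn2c (-0.40 ± 0.16) were lower. The blocked fit called 46 probe sets for the average (0.29%) and 0 of the 38 cell cycle genes, with 0 also at an unadjusted p under 0.05 (5.16% of all). The sets were defined from these arrays, so p-values of the blocked fit can be too small.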

How the data were processed

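RNA of ET cells was measured on 12 arrays. The authors' deposited table holds log2 values for each probe set, with 1 decimal; RMA is named in the submitters' processing notes, with its version and any further step not given. It equalises the arrays (median log2 5.1 on each), which hides a shift common to all genes. All 12 columns were used. Of 22690 probe sets, 64 controls were set aside; 20380 have 1 gene symbol in the platform annotation, 691 several and 1555 none. RefSeq (GRCm38.p6) matched 20351 and changed 0 symbols.

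Probe sets at or above the 30th percentile of the mean (log2 3.98) were tested with limma 3.58.1 in R 4.3.3: a mean for each of 6 groups, 6 residual degrees of freedom, moderated variances, two-sided tests, Benjamini-Hochberg within each comparison. Errors are standard errors of this fit. It was checked on simulated arrays with independent noise and neither array sets nor an outlying array, so the check does not cover these. The members and lists were chosen with earlier results of these data known. Named are all members, Cyp1a1, and of each list the genes past the test or else its highest and lowest average change. Alternatives were other filters, centring, variance trend, blocks, other solvent groups, all probe sets of a gene, and each array left out. Array sets came from complete linkage into 4 clusters without the members, with all clusters but the largest pooled as the smaller set. Same-numbered arrays deviated together (correlation 0.37, 0.16 and 0.71 at 2, 4 and 6 h), so the numbers in the titles were taken to pair arrays within a time. At 2 and 6 h same-numbered arrays also shared the array set, while at 4 h the first arrays did not. The main fit was not paired, and the numbers served as a block only in alternative fits. The number of arrays, 2 per group, limits the precision.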

Additional observations from a re-analysis of the deposited data

How the results depend on the processing

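Over 25 alternative settings, 5080 values of the cell cycle genes were recomputed, and 147 moved by at least the SD between duplicates, 15 of them without the first 4 h TCDD array. In these settings 3 values passed the test. The count of cell cycle genes past it at 4 h ranged from 0 to 2 over the fits that left out 1 array, the 2 being Bub1 and Top2a without the second 4 h TCDD array, where the first stands alone and is assumed to vary like the other groups. Between 6 h and 2 h it was 1 (Ttk) when the array set was a block and the first 4 h TCDD array was left out together, added after seeing the data, where 404 probe sets passed in all. Under the other settings it was 0 in each comparison. The replicate block changed no call among these genes; within each time it gives no common base between times and was not run for the time comparisons. The G2/M median at 4 h ran from -0.33 without the second to 0.08 without the first TCDD array. Rounding to 1 decimal and 2 arrays per group limit how small a change could be seen, and a gene that did not pass is not shown to be unchanged.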

Other observations

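The early response to mitogens was read from 15 tested genes, among them the transcription factor subunit Fosl1 and the phosphatase Dusp1, and none passed between 2 h and later times in limma without a block (lowest adjusted p = 0.99 at 4 h and 0.445 at 6 h). Averaged over both treatments, the later level minus that at 2 h was below 0 in 15 of 15 genes at 4 and at 6 h, with a median of -0.55 at both, against 0 and -0.03 over all tested probe sets. At an unadjusted p under 0.05 there were 0 at 4 h (2.84% of all probe sets) and 1 at 6 h (6.67% against 11.1%). With the array set as a block 14 of 15 were below 0 at 4 h (median -0.41), and 13 of 15 (median -0.35) when the first 4 h TCDD array was also left out; at 6 h it was 15 of 15 in both. The blocked fit called 0 of 15 at either time, with 2 and 8 at an unadjusted p under 0.05 (13.3% and 53.3%, against 5.66% and 18% of all); without the first 4 h TCDD array as well, Fosl1 passed at 6 h (-0.75, limma adjusted p = 0.0329). For the average TCDD change the list median was 0.07, with Fosl1 highest at 1.10 ± 0.38 and Dusp1 lowest at -0.70 ± 0.25 (limma adjusted p = 1 for both) and 3 of 15 at an unadjusted p under 0.05 (20% against 3.36%). With the block Fosl1 passed (0.89 ± 0.09, limma adjusted p = 0.00426; 0.29% of all passed), and the list median was -0.06.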
